A study of Mus musculus with 12 samples.

Results

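The nuclear-encoded subunits of respiratory complexes II to V, with cytochrome c, were examined in mouse liver. They were taken as every gene in the deposited count tables whose symbol is Sdha, Sdhb, Sdhc, Sdhd, Cyc1 or Cycs, or begins with Uqcr, Atp5 or Cox4 to Cox8. The rule found 48 of 24787 genes: 4 of complex II, 9 of complex III, the cytochrome c gene Cycs, 18 of complex IV and 16 of complex V. Of these, 42 had enough counts to be tested, and the other 6 were tissue isoforms of complex IV at or near 0 counts. The name rule also takes in 2 genes that are not core subunits, Cox7a2l, which helps complexes III and IV associate, and Atp5s, a coupling factor of ATP synthase. It misses a few subunits with other names, which are described with the neighbouring gene lists.

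The respiratory chain in the inner mitochondrial membrane passes electrons from NADH and succinate to oxygen and pumps protons, and ATP synthase uses the proton gradient to make ATP. Complex II takes electrons from succinate, complex III hands them from ubiquinol to cytochrome c, complex IV passes them to oxygen, and complex V is ATP synthase. Apart from complex II, each complex also holds subunits encoded by mitochondrial DNA, and those genes were not analysed here. Liver depends on this chain for gluconeogenesis, urea synthesis and the oxidation of fatty acids.

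The title of the series concerns mitophagy, the removal of mitochondria by autophagy, and PROTACs, which recruit ubiquitin ligases to chosen proteins. C57Bl/6 mice ate a normal diet (ND) or a high-fat diet (HFD). After 2 months the HFD mice were split at random. Daily injections into the peritoneum then gave them either vehicle or MEC1, a compound named only by this code, at 0.5 mg/kg. Total RNA of flash-frozen liver was sequenced in 4 libraries of each group, named ND, HFD (with vehicle) and HFD+MEC1, at 39916405 to 51340317 counts per library. All 3 groups share the strain, and the sources used here give no sex, age, batch or dosing length and do not say whether ND mice were injected. HFD minus ND therefore cannot separate the diet from vehicle and injection. Nothing in the labels says that each library came from a separate mouse, so p-values measure only the spread between these libraries, which may be technical in part. In bulk liver, fewer cells of a type and less RNA per cell cannot be told apart. Levels are CPM, counts scaled to a common TMM-adjusted library total, TMM being edgeR's scaling for library composition. Every difference between groups is a log2 fold change from edgeR's quasi-likelihood test with its SE, with Benjamini-Hochberg adjustment of p over 14172 genes. Values of a gene in a group are listed in the order of replicates 1 to 4.

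The members are scattered over 19 chromosomes, with at most 6 on 1 of them (chromosome 7), and have no common locus. Among the 42 tested members, 10 (23.8%) begin within 1000 bases of a gene that runs the other way, against 9.64% of tested protein-coding genes in GENCODE M21. Sdhd on chromosome 9 begins 98 bases from Timm8b, an import chaperone of the mitochondrial intermembrane space, and Sdha on chromosome 13 begins 29 bases from Ccdc127. RefSeq promoters (250 bases before to 50 after the start, build GRCm38.p6) matched 37 members, 34 of them tested. They were searched on both strands for 5 motifs that are known in promoters of respiratory genes, and overlaps between motifs were allowed. CGCANGCGC, letters bound by NRF1, occurred in 15 of the 34 promoters (44.1%), against 14.3% of promoters of tested genes and 7.12% of all promoters. A longer form with 1 more G at its start, searched first, occurred in 10 (29.4%, against 10.8% and 5.19%), and the shorter form was adopted after those shares had been seen. CCGGAAG, bound by ETS factors such as GABP, occurred in 12 (35.3%), against 18.6% and 9.93%. AAGATGGC (YY1) occurred in 3 (8.82%, against 4.90% and 3.19%), TNAAGGTCA (ERR) in 2 (5.88%, against 1.06% and 1.43%) and TGACGTCA (CREB) in 2 (5.88%, against 3.39% and 2.03%). A match of letters is a description and does not show binding.

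The stretches below give 170 bases of 4 promoters, ending 30 bases before the RefSeq start, with the matched letters in capitals. They were chosen so that 4 of the motifs can be seen in members of complex III, cytochrome c, complex IV and complex V.
Uqcr11, chr10:80406852-80407021, minus strand: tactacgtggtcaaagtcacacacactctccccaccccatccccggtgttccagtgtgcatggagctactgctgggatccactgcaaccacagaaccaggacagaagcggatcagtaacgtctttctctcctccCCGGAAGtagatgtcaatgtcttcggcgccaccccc
Cycs, chr6:50566600-50566769, minus strand: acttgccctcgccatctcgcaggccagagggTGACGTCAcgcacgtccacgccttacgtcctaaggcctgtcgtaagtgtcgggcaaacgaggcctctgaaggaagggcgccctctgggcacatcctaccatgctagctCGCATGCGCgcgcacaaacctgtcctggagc
Cox6a1, chr5:115348989-115349158, minus strand: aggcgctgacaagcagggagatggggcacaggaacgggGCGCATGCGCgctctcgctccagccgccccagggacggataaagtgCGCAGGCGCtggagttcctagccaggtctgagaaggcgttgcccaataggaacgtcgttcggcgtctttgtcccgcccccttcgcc
Atp5g3, chr2:73911357-73911526, minus strand: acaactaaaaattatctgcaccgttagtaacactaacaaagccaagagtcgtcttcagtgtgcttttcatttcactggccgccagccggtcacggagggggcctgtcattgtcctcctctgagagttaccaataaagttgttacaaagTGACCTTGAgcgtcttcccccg
The capitals are an ETS match in Uqcr11, a CREB match and then an NRF1 match in Cycs, NRF1 matches in Cox6a1, of which the first stretch holds an overlapping pair, and an ERR match, read on the other strand, in Atp5g3.

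Per length, the tested members covered a wide range of RPKM, reads scaled by transcript length and library total, the authors' deposited unit. Atp5b, the catalytic beta subunit of ATP synthase, had the highest mean over 12 libraries at 410 RPKM (325 to 475), followed by Cox6a1 at 351 (273 to 494) and Cox4i1 at 337 (286 to 412). The ranges of these 3 genes overlap across libraries, and their order within libraries was not tested. Atp5g3 (290), Atp5a1 (276) and Cox6c (275 RPKM) came next. Complex II was even, from 84.6 RPKM for Sdhc to 135 for Sdha, and complex III ran from 55.3 for Uqcrb to 142 for Uqcrh. Cycs stood at 32.1 RPKM, below every core subunit tested in complexes II to V. Only Atp5s at 2.31 RPKM and Cox7a1, the heart and muscle isoform, were lower.

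**Figure D1:**
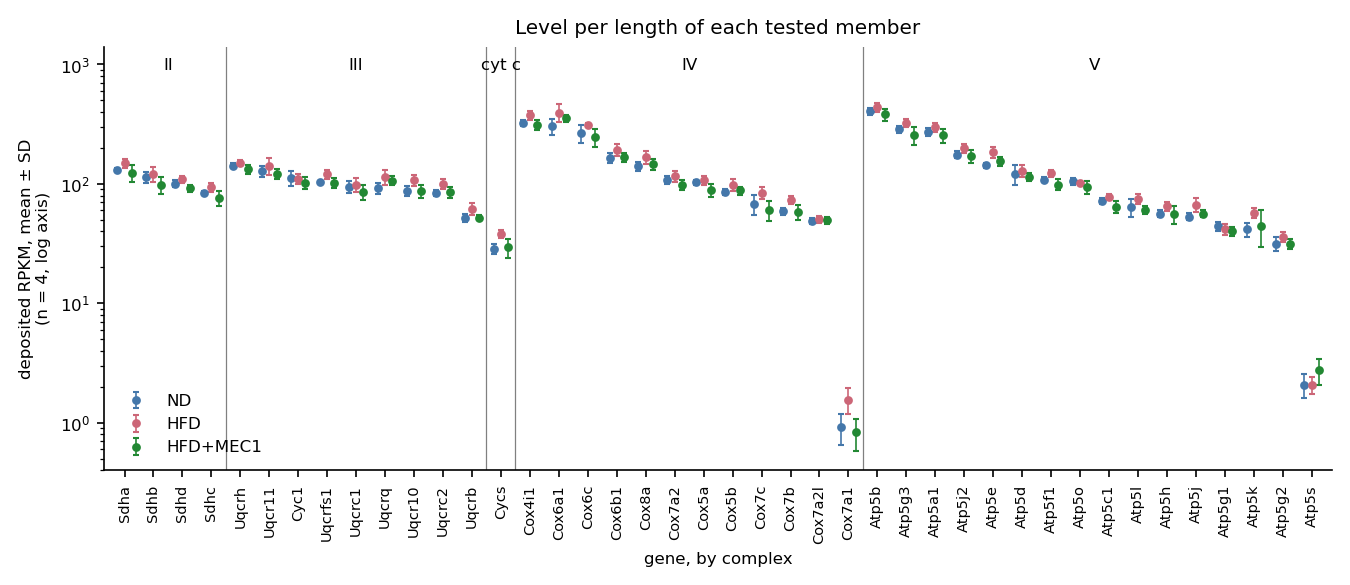
Deposited RPKM (log axis) of the 42 tested members, ordered by complex and by level in ND; points are means and bars SDs of 4 libraries per group. Atp5b is highest, and Cox7a1 and Atp5s lie far below all other members.

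Liver used the general isoforms of complex IV almost alone. Cox7b2 and Cox8c had 0 counts in all 12 libraries, and Cox4i2, Cox6a2, Cox6b2 and Cox8b had between 0 and 16 counts in any library. The share of Cox4i1 in the summed RPKM of Cox4i1 and Cox4i2 was lowest at 99.89%, in HFD+MEC1 replicate 2, and Cox7a2 made up 98.3 to 99.5% of Cox7a1 and Cox7a2. Subunit c, the proton-carrying ring of ATP synthase, comes from 3 genes whose mature proteins are the same. Atp5g3 made up 79.0% ± 1.09 of their summed RPKM in ND (SD, n = 4), 80.7% ± 1.15 in HFD and 77.9% ± 2.75 in HFD+MEC1. The share of Atp5g1 was 12.3% ± 0.563 in ND, 10.3% ± 0.835 in HFD and 12.3% ± 1.20 in HFD+MEC1. ND and HFD shares of Atp5g1 did not overlap (11.6 to 12.8% in ND, 9.33 to 11.3% in HFD; two-sided exact permutation p = 0.0286, the smallest that 4 libraries against 4 allow). Adjusted over the 9 tests of the 3 genes, p was 0.257, and these shares were computed with results already known.

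Across the 3 comparisons edgeR called 0 of the 42 members at an adjusted p under 0.05, while 5 in HFD minus ND, 25 in HFD+MEC1 minus HFD, and 10 in the comparison of HFD+MEC1 with ND had an unadjusted p under 0.05. HFD minus ND called 3.35% of all tested genes higher and 2.95% lower, and HFD+MEC1 minus HFD called 0.00706% higher and 0.0212% lower. HFD+MEC1 minus ND called 2.15% higher and 2.40% lower. The member nearest to the threshold was Atp5e in HFD minus ND (adjusted p = 0.0627), Cox5a in HFD+MEC1 minus ND (0.0685) and Atp5f1 in HFD+MEC1 minus HFD (0.164). DESeq2 called 1 member in each comparison, Atp5e higher in HFD than ND, Cox4i1 lower in HFD+MEC1 than HFD and Cox5a lower in HFD+MEC1 than ND. Of 14172 genes it called 717 higher and 674 lower in HFD minus ND. It called 146 higher and 243 lower in HFD+MEC1 minus HFD, and 548 and 607 in HFD+MEC1 minus ND. Limma-voom called 0 members, and 891, 2 and 593 genes in the same order of comparisons. The SE of a member's difference had a median of 0.10 on the log2 scale in each comparison. The comparisons share libraries, so their values are given side by side and not related to each other.

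The members leaned one way in HFD+MEC1 minus HFD. Of 42, 41 had a log2 fold change below 0, against 48.9% of all tested genes, and 1 above 0, against 51.1%. Their median was -0.22 against 0.01 over all genes. At an unadjusted p under 0.05, 25 members were lower and 0 higher (background 7.96% lower and 6.87% higher). For 13 members every HFD+MEC1 library lay below every HFD library, against 3.98% of all genes: Sdhc, Sdhd, Uqcr10, Uqcrfs1, Cox4i1, Cox5a, Cox6c, Cox7a2, Cox7c, Atp5c1, Atp5f1, Atp5g3 and Atp5l. The library HFD+MEC1 replicate 3 was the lowest of all 12 for 28 of the 42 members, and its sum of 9 hepatocyte markers was the lowest too, at 82600 CPM against 93600 to 114000 CPM in the others. Of those markers taken singly, 4 of 9 were below 0 in HFD+MEC1 minus HFD, with a median of 0.04. Without it, 39 of 42 members were below 0, the median was -0.18, and 15 had an unadjusted p under 0.05.

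In HFD minus ND, 32 of 42 members had a log2 fold change above 0, against 49.4% of all genes, with a median of 0.09 against -0.00 over all genes. The other 10 were below 0, as were 50.6% of all genes. At an unadjusted p under 0.05, 5 were higher (Cycs, Cox6a1, Atp5e, Atp5j and Atp5k; background 10.5%) and 0 lower (10.2%). For 4 members, Uqcr10, Cycs, Cox4i1 and Cox7b, all HFD libraries lay above all ND libraries, against 7.46% of all genes, and for 0 members the reverse held (6.81% of genes). Both of these counts are close to the background. Without ND replicate 4, which lay below the ND mean for 41 of the 42 members, the median was 0.05. In HFD+MEC1 minus ND, 36 of 42 were below 0 (49.4% of all genes) and 6 above (50.6%), with a median of -0.15 against 0.00. At an unadjusted p under 0.05, 10 members were lower (background 9.61%) and 0 higher (9.47%), and the groups did not overlap for Sdhc and Cox5a (5.84% of genes for lower), with 0 members in the other direction (5.13% of genes). Without HFD+MEC1 replicate 3 the median of HFD+MEC1 minus ND was -0.10, and 3 members had an unadjusted p under 0.05. With library totals as the scale that median was -0.08, and 0 members had an unadjusted p under 0.05.

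**Figure D2:**
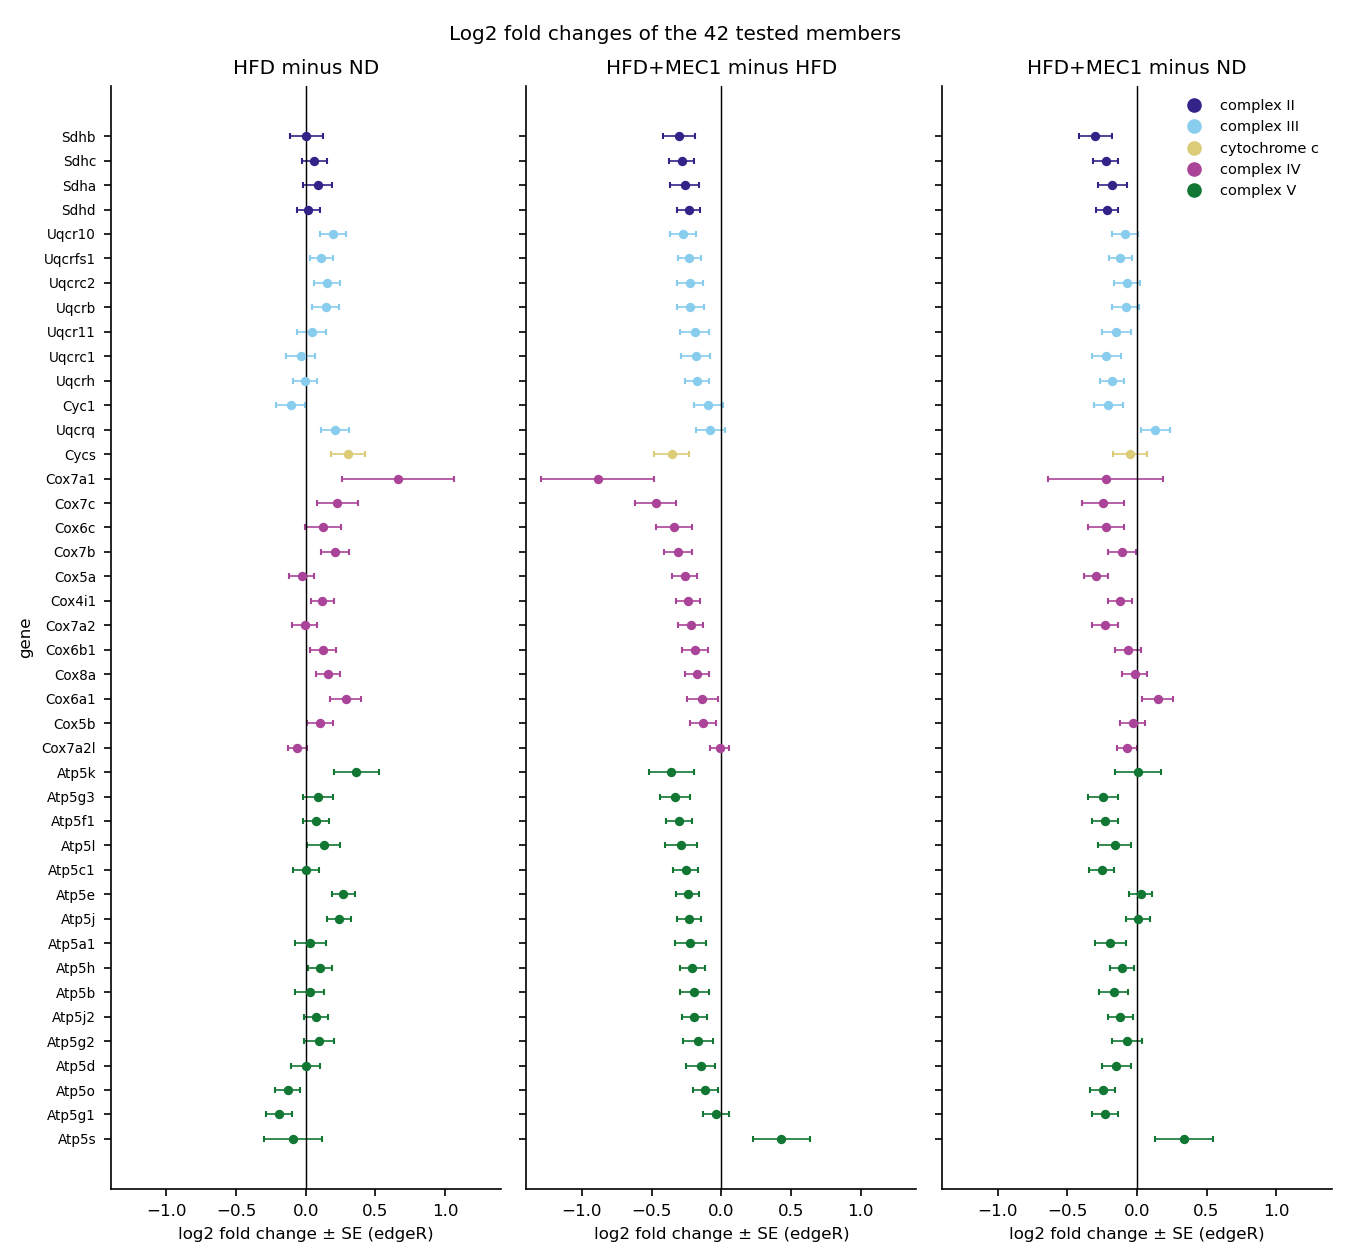
Log2 fold change with its SE (edgeR) for the 42 tested members in each comparison, grouped by complex. Only Atp5s lies above 0 in HFD+MEC1 minus HFD, and its SE is among the widest with that of Cox7a1.

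The medians of the complexes are given side by side, and differences between complexes were not tested. In HFD+MEC1 minus HFD the median was -0.27 over 4 members of complex II, -0.19 over 9 of complex III, -0.36 for Cycs, -0.23 over 12 of complex IV and -0.22 over 16 of complex V. In HFD minus ND these medians were 0.04, 0.11, 0.31, 0.12 and 0.07. In HFD+MEC1 minus ND they were -0.22, -0.12, -0.05, -0.11 and -0.15. In a single library the level of a complex was taken as the median over its members of log2 CPM minus the ND mean. For complex II this level ran from -0.12 to 0.09 in ND, from -0.01 to 0.16 in HFD and from -0.42 to -0.08 in HFD+MEC1. For complex V it ran from -0.08 to 0.05 in ND, from 0.01 to 0.13 in HFD and from -0.28 to -0.04 in HFD+MEC1. By this median HFD+MEC1 did not overlap HFD in complexes II, III, IV or V, and in Cycs it did. In complex III the gap was narrow, between 0.0159 in HFD+MEC1 replicate 4 and 0.0215 in HFD replicate 4. With the mean over members in place of the median, the 2 groups overlapped in complexes III and V. As summed RPKM they overlapped in complexes II, III, IV and V.

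**Figure D3:**
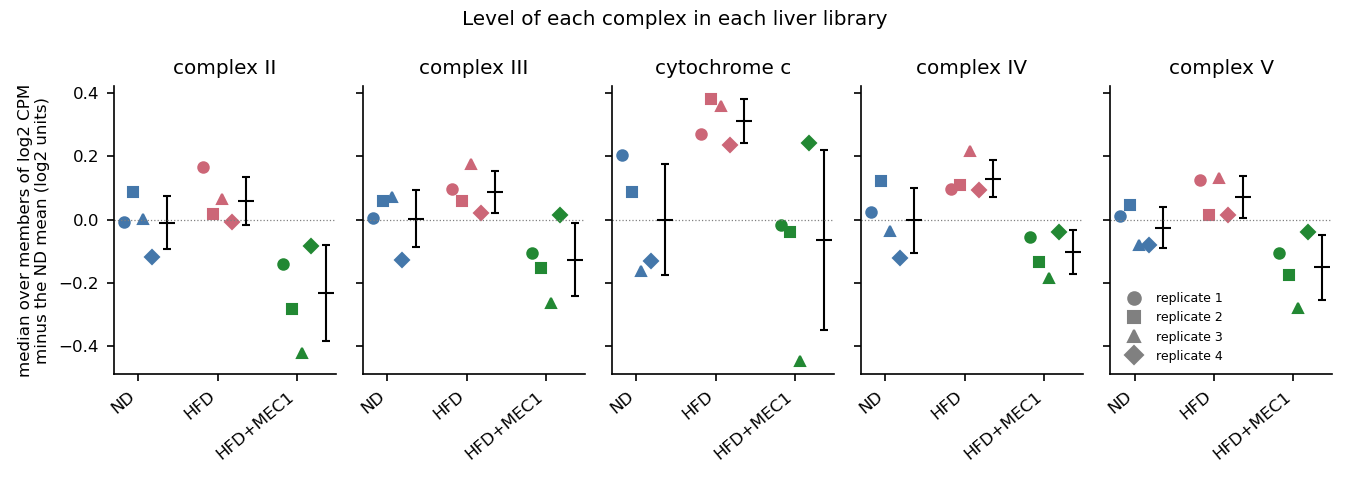
Level of each complex in each library (median over tested members of log2 CPM minus the ND mean); marker shape gives the replicate number, which does not pair libraries, and bars are mean ± SD of 4 libraries. HFD+MEC1 replicate 3 is the lowest point in every panel, at -0.42 in complex II and -0.45 in cytochrome c.

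All 4 genes of complex II had a log2 fold change below 0 in HFD+MEC1 minus HFD, and none passed the test. Sdha carries the flavin that oxidises succinate, Sdhb the iron-sulfur clusters, and Sdhc and Sdhd anchor the enzyme and bind ubiquinone. Sdha stood at 510, 518, 499 and 472 CPM in the ND libraries, at 565, 519, 541 and 498 CPM in the HFD libraries and at 500, 417, 380 and 473 CPM in the HFD+MEC1 libraries. Its log2 fold change was 0.09 ± 0.10 in HFD minus ND and -0.26 ± 0.10 in HFD+MEC1 minus HFD (edgeR adjusted p = 0.695 and 0.246). HFD+MEC1 replicates 2 and 3 were the lowest of all libraries, and replicate 1 of that group lay just above the lowest HFD library. Sdhb stood at 159, 169, 178 and 144 CPM in the ND libraries, at 195, 142, 155 and 161 CPM in the HFD libraries and at 144, 120, 113 and 153 CPM in the HFD+MEC1 libraries. The HFD+MEC1 libraries overlapped both other groups. The differences were 0.00 ± 0.12 for HFD minus ND and -0.30 ± 0.12 for HFD+MEC1 minus HFD (adjusted p = 0.237 for the latter). Sdhc stood at 126, 142, 128 and 129 CPM in the ND libraries, at 146, 131, 139 and 131 CPM in the HFD libraries and at 122, 106, 96.0 and 125 CPM in the HFD+MEC1 libraries. Here the HFD+MEC1 group lay below the other 2 groups without overlap, at -0.28 ± 0.09 against HFD and -0.22 ± 0.09 against ND (adjusted p = 0.171 and 0.183). Sdhd stood at 172, 188, 171 and 153 CPM in the ND libraries, at 178, 175, 175 and 165 CPM in the HFD libraries and at 151, 144, 142 and 154 CPM in the HFD+MEC1 libraries. HFD+MEC1 lay below HFD without overlap at -0.23 ± 0.08 (adjusted p = 0.194), and ND replicate 4 at 153 CPM overlapped the HFD+MEC1 range. Per length, the summed RPKM of complex II was 430 ± 21.5 in ND, 474 ± 40.8 in HFD and 390 ± 54.0 in HFD+MEC1.

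All 9 members of complex III had a log2 fold change below 0 in HFD+MEC1 minus HFD, from -0.28 to -0.08, and none passed the threshold. Uqcrc1 and Uqcrc2 form the core on the matrix side, Cyc1 and the iron-sulfur protein Uqcrfs1 carry electrons, and Uqcrb, Uqcrq, Uqcrh, Uqcr10 and Uqcr11 are small subunits. Uqcr10 stood at 53.0, 55.0, 53.4 and 42.8 CPM in the ND libraries, at 56.1, 55.2, 63.2 and 58.9 CPM in the HFD libraries and at 51.3, 48.5, 42.3 and 50.4 CPM in the HFD+MEC1 libraries. HFD lay above both other groups without overlap, at 0.19 ± 0.09 over ND (adjusted p = 0.25), and HFD+MEC1 minus HFD was -0.28 ± 0.09 (adjusted p = 0.186). ND replicate 4 stood apart from the other ND libraries. Uqcrfs1 stood at 181, 185, 177 and 179 CPM in the ND libraries, at 211, 188, 197 and 183 CPM in the HFD libraries and at 170, 157, 155 and 182 CPM in the HFD+MEC1 libraries. HFD+MEC1 lay below HFD without overlap (log2 fold change -0.23 ± 0.08, adjusted p = 0.209) and overlapped ND. Uqcrc2 stood at 193 to 228 CPM in ND, at 210 to 246 in HFD and at 185 to 218 in HFD+MEC1, and 19.7% of its exonic sequence overlaps Pdzd9 on the other strand. Its difference was -0.22 ± 0.09 in HFD+MEC1 minus HFD (adjusted p = 0.266). Uqcrb differed by the same -0.22 (SE 0.10, adjusted p = 0.306). Uqcrq, a small subunit, was the one member of the complex with HFD+MEC1 above ND (0.13 ± 0.10, adjusted p = 0.524), and HFD minus ND was 0.21 ± 0.10 (0.247). Of the 2 electron carriers, Cyc1 was at -0.11 ± 0.10 and Uqcrfs1 at 0.11 ± 0.08 in HFD minus ND, but neither passed the test and their difference was not tested.

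Cytochrome c, encoded by 1 gene here, had its highest mean in HFD, and no difference passed the edgeR test on the TMM scale. Cycs (chr6:50562563-50566538, minus strand) encodes the soluble carrier between complexes III and IV, which also triggers caspase activation when it leaves mitochondria. Cycs stood at 133, 123, 103 and 106 CPM in the ND libraries, at 140, 150, 148 and 136 CPM in the HFD libraries and at 114, 113, 84.8 and 137 CPM in the HFD+MEC1 libraries. All HFD libraries lay above all ND libraries, with a difference of 0.31 ± 0.12 (unadjusted p = 0.0236, edgeR adjusted p = 0.159). HFD+MEC1 minus HFD was -0.36 ± 0.12 (adjusted p = 0.192), but HFD+MEC1 replicate 4 at 137 CPM lay within the HFD range and replicate 3 at 84.8 CPM was the lowest of 12. HFD+MEC1 minus ND was -0.05 ± 0.12 and changed sign, to 0.06, without HFD+MEC1 replicate 3. The annotation holds 3 pseudogenes with at least 95% identity to Cycs over at least 100 bases, so its reads may be shared.

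In complex IV all 12 tested members were below 0 in HFD+MEC1 minus HFD, from -0.89 for Cox7a1 to -0.01 for Cox7a2l. The nuclear subunits surround the catalytic core that mitochondrial DNA encodes: Cox4i1, through which ATP inhibits the enzyme, Cox5a and Cox5b, and small subunits of the groups 6, 7 and 8. Cox4i1 stood at 326, 327, 339 and 314 CPM in the ND libraries, at 370, 340, 367 and 342 CPM in the HFD libraries and at 311, 293, 280 and 319 CPM in the HFD+MEC1 libraries. HFD lay above both other groups without overlap, at 0.12 ± 0.08 against ND, and HFD+MEC1 minus HFD was -0.24 ± 0.08 (edgeR adjusted p = 0.46 and 0.204). With DESeq2, which called 243 genes lower in HFD+MEC1 minus HFD against 3 with edgeR, the second difference passed (adjusted p = 0.0374). Cox5a stood at 95.1, 101, 94.6 and 87.9 CPM in the ND libraries, at 97.1, 86.8, 96.1 and 91.1 CPM in the HFD libraries and at 80.5, 77.4, 65.2 and 85.9 CPM in the HFD+MEC1 libraries. HFD+MEC1 lay below both other groups without overlap, at -0.26 ± 0.09 against HFD (adjusted p = 0.185) and -0.29 ± 0.09 against ND (0.0685). The exons of Cox5a overlap Gm26631 on the other strand over 12.8% of their length. Cox7c stood at 49.3, 45.6, 29.9 and 36.5 CPM in the ND libraries, at 47.2, 55.2, 45.1 and 41.4 CPM in the HFD libraries and at 38.5, 36.3, 26.7 and 34.6 CPM in the HFD+MEC1 libraries. Its difference of -0.47 ± 0.15 in HFD+MEC1 minus HFD (adjusted p = 0.175) was the most negative among core subunits, and its spread was wide, with ND replicate 3 at 29.9 CPM near the lowest HFD+MEC1 library. Cox7b stood at 85.9, 82.5, 75.8 and 70.0 CPM in the ND libraries, at 89.8, 90.7, 94.7 and 87.5 CPM in the HFD libraries and at 74.2, 67.1, 62.7 and 87.8 CPM in the HFD+MEC1 libraries. HFD lay above ND without overlap (0.21 ± 0.10, adjusted p = 0.252), and HFD+MEC1 replicate 4 at 87.8 CPM reached into the HFD range (difference -0.31 ± 0.10, adjusted p = 0.171).

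Cox6a1 was among the members with HFD+MEC1 above ND, a difference that did not pass the test. Cox6a1, the liver form of subunit 6a, stood at 196, 217, 253 and 190 CPM in the ND libraries, at 256, 231, 307 and 249 CPM in the HFD libraries and at 226, 221, 237 and 265 CPM in the HFD+MEC1 libraries. HFD minus ND was 0.29 ± 0.11 (unadjusted p = 0.0216, adjusted p = 0.151), HFD+MEC1 minus HFD was -0.14 ± 0.11 and HFD+MEC1 minus ND was 0.15 ± 0.11. The groups overlapped in every comparison. Cox7a2l stood at 70.0, 80.9, 75.0 and 73.5 CPM in ND, 73.8, 70.6, 72.3 and 70.4 in HFD and 73.0, 70.5, 68.7 and 72.6 in HFD+MEC1. Among members with 100 counts it had the lowest coefficient of variation in HFD (2.22%) and in HFD+MEC1 (2.75%). In ND the lowest was that of Uqcrfs1 (1.87%). For Cox7a2l the difference in HFD+MEC1 minus HFD was -0.01 ± 0.07, and 0.05 after correction for GC content and length. Cox7a1 had only 11 to 38 counts per library (0.252 to 0.838 CPM), and its -0.89 ± 0.40 in HFD+MEC1 minus HFD (adjusted p = 0.325) rests on those counts.

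Complex V held the member with the highest mean RPKM, Atp5b, and the only member above 0 in HFD+MEC1 minus HFD, Atp5s. F1 is the catalytic head (Atp5a1, Atp5b, Atp5c1, Atp5d, Atp5e), the ring of subunit c and the stalk lie in and beside the membrane, and several small subunits shape the dimer. Atp5f1, subunit b of the peripheral stalk, stood at 277, 285, 235 and 247 CPM in the ND libraries, at 291, 284, 271 and 255 CPM in the HFD libraries and at 233, 222, 200 and 239 CPM in the HFD+MEC1 libraries. HFD+MEC1 lay below HFD without overlap, at -0.30 ± 0.09 (unadjusted p = 0.00537, edgeR adjusted p = 0.164), and HFD+MEC1 minus ND was -0.23 ± 0.09. Atp5g3 stood at 277, 297, 281 and 246 CPM in the ND libraries, at 313, 277, 291 and 290 CPM in the HFD libraries and at 255, 230, 185 and 260 CPM in the HFD+MEC1 libraries. HFD+MEC1 lay below HFD without overlap (-0.33 ± 0.11, adjusted p = 0.177), with replicate 3 at 185 CPM far under its group. Atp5c1, the central rotor, stood at 190, 179, 161 and 163 CPM in the ND libraries, at 185, 175, 167 and 167 CPM in the HFD libraries and at 150, 144, 125 and 161 CPM in the HFD+MEC1 libraries. Its difference was -0.26 ± 0.09 against HFD and -0.25 ± 0.09 against ND (adjusted p = 0.209 and 0.133), and in HFD minus ND it was 0.00 ± 0.09. Atp5a1 and the catalytic subunit Atp5b had smaller values, -0.22 ± 0.11 and -0.19 ± 0.11 in HFD+MEC1 minus HFD (adjusted p = 0.363 and 0.409).

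Small subunits of complex V were nearest to the threshold in HFD minus ND. Atp5e, the epsilon subunit of the head, stood at 77.2, 87.5, 74.3 and 76.0 CPM in the ND libraries, at 95.7, 84.2, 99.4 and 100 CPM in the HFD libraries and at 82.8, 77.7, 75.8 and 85.0 CPM in the HFD+MEC1 libraries. The difference of 0.27 ± 0.08 had an unadjusted p of 0.00469 and an edgeR adjusted p of 0.0627, and HFD replicate 2 overlapped ND. It passed with DESeq2 (0.0379), without ND replicate 2 (0.0448) and without HFD replicate 2 (0.0416). Those settings called 717, 411 and 353 genes higher, against 475 with edgeR on all 12 libraries. HFD+MEC1 minus HFD was -0.24 ± 0.08, and HFD+MEC1 minus ND was 0.03 ± 0.08. Atp5j, coupling factor 6, stood at 64.1, 61.8, 66.3 and 62.0 CPM in the ND libraries, at 74.4, 66.2, 84.1 and 75.5 CPM in the HFD libraries and at 61.1, 60.4, 62.6 and 72.0 CPM in the HFD+MEC1 libraries. Its differences were 0.24 ± 0.09 for HFD minus ND (adjusted p = 0.111) and -0.23 ± 0.09 for HFD+MEC1 minus HFD. On the other strand, 12.7% of its exonic sequence overlaps Gabpa, whose product is a subunit of the ETS factor GABP. Atp5k, a subunit at the dimer contact, was at 0.36 ± 0.16 and -0.36 ± 0.16, but HFD+MEC1 replicate 1 at 22.8 CPM stood far from the 13.1 to 16.2 CPM of its group. Without that library edgeR called Atp5k lower in HFD+MEC1 than in HFD, as 1 of 286 genes called lower, against 3 with all 12 libraries.

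The genes for subunit c had unlike values, and differences between them were not tested beyond the shares above. Atp5g1 was at 50.1, 51.6, 55.6 and 47.3 CPM in ND, 42.6, 41.1, 46.4 and 49.2 in HFD and 39.8, 47.1, 38.8 and 49.0 in HFD+MEC1. Its log2 fold change was -0.19 ± 0.09 for HFD minus ND (adjusted p = 0.263) and -0.04 ± 0.09 for HFD+MEC1 minus HFD, while Atp5g2 was at 0.10 ± 0.11 and -0.17 ± 0.11. Atp5s was the only member above 0 in HFD+MEC1 minus HFD. Atp5s stood at 4.61, 3.58, 3.09 and 5.03 CPM in the ND libraries, at 3.47, 3.69, 4.46 and 3.68 CPM in the HFD libraries and at 4.09, 4.30, 7.14 and 5.14 CPM in the HFD+MEC1 libraries. HFD+MEC1 replicate 3, the lowest library for most members, was the highest for Atp5s at 7.14 CPM, and the difference was 0.43 ± 0.21 (adjusted p = 0.343) on 128 to 278 counts.

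Neighbouring gene lists were described by the same measures. The 36 tested complex I subunits had a median of -0.20 in HFD+MEC1 minus HFD, with 35 below 0 and 0 called (19 at an unadjusted p under 0.05). The 13 TCA cycle enzymes other than succinate dehydrogenase had -0.20 (12 below 0), and 17 other mitochondrial proteins had -0.13 (15 below 0), which became -0.07 (13 below 0) without HFD+MEC1 replicate 3. The 3 subunits that the name rule misses, Ndufa4 of complex IV and Usmg5 and 2010107E04Rik of complex V, were all below 0 with a median of -0.23. The 41 assembly factors of complexes II to V and of cytochrome c had -0.07, with 27 below 0, nearer to all genes. Cmc1, a complex IV assembly factor, was the lowest of them at -0.46 ± 0.13 (edgeR adjusted p = 0.139). The 67 tested cytosolic ribosomal proteins, also short and abundant transcripts, had 0.06, with 19 below 0. In HFD minus ND the members stood at a median of 0.09, complex I at 0.09 and TCA enzymes at 0.10. The ribosomal proteins stood at -0.22, with 59 of 67 below 0, and edgeR called 14 of them lower, against 2.95% of all genes. With library totals as the scale, which moved the median of all genes by 0.12, complex I stood at 0.22, TCA enzymes at 0.23 and the ribosomal proteins at -0.09 (48 of 67 below 0). On the TMM scale Rpl12 fell by 0.65 (adjusted p = 0.000625).

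**Figure D4:**
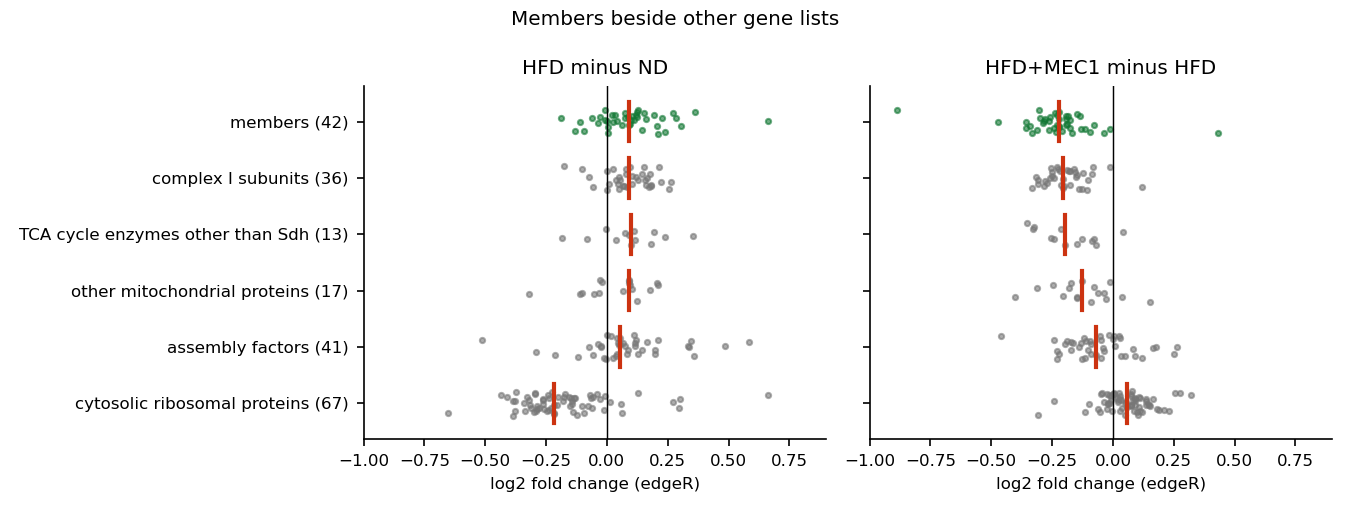
Log2 fold changes (edgeR) of each tested gene in 6 lists, with red bars at the list medians; numbers in brackets are genes tested. For HFD+MEC1 minus HFD the members lie at a median of -0.22 and the ribosomal proteins at 0.06, and in HFD minus ND at 0.09 and -0.22.

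Among genes that build or control the chain, calls came from HFD minus ND and from HFD+MEC1 minus ND. Cox19, a copper chaperone for complex IV assembly, rose from 21.9 ± 3.13 CPM in ND to 32.8 ± 5.28 in HFD (log2 fold change 0.58 ± 0.12, edgeR adjusted p = 0.0095) and stood at 27.9 ± 1.84 in HFD+MEC1. It was the only 1 of the 41 assembly factors to be called. Of 13 regulators of mitochondrial biogenesis, Ppara, a receptor for fatty acids, rose from 137 ± 16.2 to 223 ± 13.1 CPM (0.70 ± 0.11, adjusted p = 0.00187) and was at 249 ± 35.2 in HFD+MEC1. Esrra, which encodes ERR-alpha, fell by 0.52 from 33.6 ± 2.80 to 23.3 ± 3.79 CPM (adjusted p = 0.0182), and HFD+MEC1 stood at 20.3 ± 2.99. The Esrra call was lost without HFD replicate 2 or 3. Nrf1 fell by 0.47 (adjusted p = 0.0325), a call lost in 9 of 22 alternative settings: without ND replicate 1 or 3 or HFD replicate 1, 2 or 3, with library totals as the scale, with the GC and length correction and with limma on log2 RPKM at both pseudocounts. Against ND, HFD+MEC1 gave calls for Ppara (0.85 ± 0.11, adjusted p = 0.00067) and Esrra (-0.73 ± 0.12, 0.00366). Ppargc1a, a coactivator of respiratory genes, was at -0.43 ± 0.21 in HFD+MEC1 minus HFD (adjusted p = 0.35), and 0 of the 13 were called in that comparison by edgeR (1 at an unadjusted p under 0.05). In the TCA cycle Suclg1, a subunit of the enzyme that makes succinate, was higher in HFD than ND by 0.35 ± 0.09 (adjusted p = 0.0349). That call was lost without any 1 HFD library or without ND replicate 2, 3 or 4. In complex I, Ndufa8 rose by 0.26 ± 0.07 (adjusted p = 0.0409), and 11 of 22 alternative settings did not call it, among them leaving out ND replicate 1, 2 or 4, HFD replicate 1, 3 or 4 or HFD+MEC1 replicate 2 or 4.

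Markers of liver cell types were measured in the same libraries, and their part in the result was not tested. The summed level of 9 hepatocyte markers was 99300 to 114000 CPM in ND, 98100 to 111000 in HFD, and 108000, 93600, 82600 and 108000 CPM in the HFD+MEC1 libraries. By median the 9 markers stood at 0.04 in HFD+MEC1 minus HFD, with 4 below 0 and 5 above (0.13 without HFD+MEC1 replicate 3, with 3 below 0). The 2 with the smallest p went opposite ways. Ttr, a secreted transport protein, was at -0.37 ± 0.14 and Hnf4a, a hepatocyte transcription factor, at 0.31 ± 0.12 (edgeR adjusted p = 0.231 and 0.254). In the same order the median member level of those HFD+MEC1 libraries was -0.10, -0.17, -0.28 and -0.04. The sum of 11 macrophage markers was 302 to 450 CPM in ND, 350 to 549 in HFD and 414 to 565 in HFD+MEC1. That of 8 endothelial markers was 190 to 300, 263 to 334 and 308 to 357 CPM. Stellate cell markers (8) summed to 221 to 358, 138 to 327 and 178 to 299 CPM, cholangiocyte markers (6) to 61.1 to 92.1, 40.3 to 59.7 and 37.3 to 90.0 CPM, and lymphocyte markers (7) to at most 7.26 CPM. Erythroid markers (5) ranged from 1830 to 6580 CPM over the 12 libraries. The 7 muscle markers reached at most 0.216 CPM, with Acta1 and Mb at 0 everywhere, and of 5 adipocyte markers Ucp1, Plin1 and Lep were at 0 in every library. Single markers called were Cps1 (lower in HFD than ND, -1.18 ± 0.22, adjusted p = 0.00498, and lower in HFD+MEC1 than ND), Epcam (lower in HFD+MEC1 than ND), Clec4g (higher in HFD+MEC1 than ND) and Cidea (higher in HFD than ND). The Cidea call was lost without any 1 ND library, without HFD replicate 1, 2 or 3 or without HFD+MEC1 replicate 4, and also with limma-voom, no filter or the replicate block. The Clec4g call was lost without ND replicate 1 or 4 or HFD+MEC1 replicate 3 or 4, and with the 2 groups alone.

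GC content also varied with library. Spearman's rho between a gene's GC content and its deviation from the mean over libraries was 0.46 in ND replicate 3, -0.44 in HFD replicate 2 and 0.27 in HFD+MEC1 replicate 3, across 11887 genes, which are not independent. Cox7c, at 38.4% GC, was lowest in that replicate among the ND libraries. Correcting each library for GC content and length left the median of HFD+MEC1 minus HFD at -0.19 with 39 of 42 members below 0. For HFD minus ND the corrected median was 0.05, and edgeR then called Atp5e and Atp5j higher, among 561 genes called higher. The members are short, with a median implied transcript length of 975 bases against 3723 for all genes, and 15 of them have a pseudogene with at least 95% identity over 100 bases, 9 in the case of Atp5l.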

How the data were processed

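Liver RNA-seq of 12 libraries was used, 4 per group, with groups and replicate numbers taken from the sample titles. Per the file headers, the authors deposited read counts by gene symbol, 1 table a library, and 1 joint table of RPKM values. The submitters' processing notes name STAR 2.7.10a and mm10; the counting tool, its annotation and its use of strand are not given in the sources used here. The RPKM table also holds 12 columns that match no sample, which were not used. Replicates of a group differed by at least 35.3 in chi-square per gene, so no pair was merged.

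In R 4.3.3 the edgeR 4.0.16 function filterByExpr kept 14172 genes with 99.98% of all counts, and TMM set the scale. One robust quasi-likelihood model over the 3 groups gave each difference, and an adjusted p under 0.05 was a call. The common biological coefficient of variation was 0.200, and log2 CPM used a prior count of 2. SEs were derived from the log2 fold change and its F statistic. Alternatives were other scalings, DESeq2 1.42.0, limma 3.58.1 (voom, and log2 RPKM with 0.1 or 1 added), no filter, a replicate block, the 2 groups alone, each library left out, and a correction for GC content and length added after the data were seen. The test was also run on simulated data. Their smallest change was larger than the median change of the members, so changes of that size were not covered.

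The text gives values for all members of complex II and cytochrome c, the 4 members of each larger complex with the smallest p in HFD+MEC1 minus HFD and the 2 with the smallest in HFD minus ND, special isoforms, and called genes of other lists with the 2 of smallest p per list; some are only counted or plotted. The members and gene lists were chosen with earlier results of these data known. Coordinates are from GENCODE M21, 1-based, and promoter sequences from RefSeq.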

Additional observations from a re-analysis of the deposited data

Results flagged for a closer look

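Among 87 groups of 4 libraries examined (named members and complex levels, each within a group), 2 held a library far from the other 3. Chance alone flags about 1 in 20 groups. For Uqcr10 the outlying value was 42.8 CPM in ND replicate 4, while its group otherwise ran from 53.0 to 55.0 CPM. The level of complex IV in HFD replicate 3 was 0.215 on the log2 scale above the ND mean, against 0.0926 to 0.109 in the other HFD libraries.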

How the results depend on the processing

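HFD+MEC1 minus HFD kept its direction for the median of all members and of complexes II, III, IV and V under every alternative run. The count of calls there was 0 except with DESeq2 (1, Cox4i1) and without HFD+MEC1 replicate 1 (1, Atp5k). Over all genes those settings called 243 and 286 lower, against 3 with edgeR on all 12 libraries. Leaving out 1 library moved the member median from -0.26 to -0.18 (complex II -0.33 to -0.21, III -0.25 to -0.13, IV -0.25 to -0.18, V -0.26 to -0.16) and the calls from 0 to 1.

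HFD minus ND depended on scale. With library totals the median of all tested genes moved from -0.00 to 0.12 and calls over all genes from 475 higher and 418 lower to 906 and 233. The member median was then 0.22 (complex II 0.17, III 0.24, IV 0.25, V 0.20), with 3 members called (Cycs, Atp5e and Atp5j). With limma on log2 RPKM, which is also scaled by totals, the member median was 0.19 at both pseudocounts, complex IV 0.23 and complex V 0.17. It called 1 member (Atp5e), and over all genes 642 and 647 higher at pseudocounts of 0.1 and 1. DESeq2 called 1 member higher (717 over all genes) and the GC and length correction 2 (561 over all genes). Under that correction complex II stood at -0.0036. Left-out libraries gave 0 to 1 calls (Atp5e, without ND replicate 2 or HFD replicate 2) and medians of 0.05 to 0.11 (complex II 0.01 to 0.08, III 0.07 to 0.14, IV 0.08 to 0.17, V 0.03 to 0.09).

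In HFD+MEC1 minus ND, DESeq2 and the GC and length correction each called 1 member lower (Cox5a), and over all genes 607 and 459 lower. Log2 RPKM gave medians of -0.0591 and -0.0585 at its pseudocounts of 0.1 and 1, for all members and for complex V alike. With library totals the member median was -0.0789, with 30 of 42 below 0. An unadjusted p under 0.05 was reached by 0 members with library totals and 1 with log2 RPKM at either pseudocount, against 10 on the TMM scale. Left-out libraries gave 0 calls and medians of -0.19 to -0.10 (complex II -0.26 to -0.18, III -0.17 to -0.09, IV -0.15 to -0.06, V -0.19 to -0.11). As summed RPKM, the level of complex III in HFD+MEC1 minus ND was -0.0357, that of complex IV -0.0027, and complex IV in HFD minus ND was 0.24. The causes were not tested beyond the scaling itself.

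Single genes near 0 changed sign. Sdhb in HFD minus ND was at -0.0009 with limma-voom, -0.0075 with the replicate block, -0.0121 with the GC and length correction and -0.0916 to 0.0653 with a library left out. Sdhd in HFD minus ND was at -0.0289 with that correction and -0.0345 to 0.0622 with a library left out. Cycs in HFD+MEC1 minus ND was at 0.0215 with library totals, 0.0155 with log2 RPKM at both pseudocounts, and -0.163 to 0.0604 with a library left out. In HFD+MEC1 minus HFD, Cox7a2l was at 0.0494 and Atp5g1 at 0.0639 with the GC and length correction, and at -0.0231 to 0.01 and -0.0932 to 0.0207 with a library left out.

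Equal replicate numbers do not show pairing: correlations of deviations ran from -0.09 to 0.13 over 12 same-numbered pairs and from -0.30 to 0.17 over 36 others. With a replicate block, 0 members were called in each comparison and the medians were 0.09, -0.22 and -0.14.

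The SE of a member's difference was near 0.10 on the log2 scale, and Cox7a1 and Atp5s have too few counts for firm values.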
